A study of Saccharomyces cerevisiae with 7 samples.

Results

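The 32 genes described here encode subunits of the budding yeast proteasome, 14 in its core particle and 18 in its regulatory particle. They were chosen by name from a table of 5470 genes. The list leaves out RPN4, which encodes a transcription factor, and RPN14, which encodes an assembly chaperone. SEM1 is not in the list either, and was not matched by name. All 32 had a probe on the arrays, 1 each, and 29 had a value on all 7 arrays.

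The proteasome is the protease that degrades proteins tagged with ubiquitin. Its core particle is a stack of alpha rings and beta rings, with the active sites on the inner face of 3 kinds of beta subunit. The regulatory particle caps the core and has a base, whose ATPases unfold the substrate and feed it into the core, and a lid, which removes the ubiquitin. In yeast the genes of the subunits share an activator, Rpn4, which the proteasome itself degrades. In yeast that has stopped growing for lack of glucose, proteasomes are known to gather in cytoplasmic storage granules.

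The study followed Saccharomyces cerevisiae through the diauxic shift, the passage from fermenting glucose to respiring the ethanol made from it. Total RNA of the culture at 0, 9.5, 11.5, 13.5, 15.5, 18.5 and 20.5 h was hybridised on 7 arrays, 1 per time point, each against RNA labelled as coming from a 0.14 OD culture with 19 g/L glucose. The culture stood at 0.14, 0.46, 0.8, 1.8, 3.7, 6.9 and 7.3 OD at these times, and the medium held 19, 18.7, 17.6, 14, 7.5, 0.2 and 0 g/L glucose. The labels used here name no strain, treatment or number of flasks, and no time point was repeated.

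The values are ratios of culture over reference on the log2 scale, with the median of each array set to 0. A value of 1 is a 2-fold higher ratio than that of the median probe. The labels do not name the dyes. Culture over reference is the likely direction, going by the channel in which the labels put each RNA and by general knowledge of this experiment. The arrays held between 6048 and 6342 values. The SD between spots of one gene ran from 0.19 at 13.5 h to 0.45 at 18.5 h, and a single ratio of a proteasome gene carries an error of that order, since each rests on 1 spot. Correlations between arrays over all probes ran from -0.28, for 0 h and 18.5 h, to 0.82, for 18.5 h and 20.5 h. The arrays carry a lot each, so lot and time cannot be told apart. The RNA is that of a whole culture, in which fewer cells that express a gene and less of its RNA per cell cannot be told apart.

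The proteasome genes lay close to the array median while glucose lasted, and stood above it at 18.5 h, when glucose was nearly gone. They were lower again at 20.5 h. The medians of the genes measured, 30 to 32 per array, were on the 5 arrays up to 15.5 h, in order of time, 0.20, 0.11, 0.13, 0.08 and 0.11. On the late arrays, those of 18.5 and 20.5 h, they were 0.61 and 0.10. Of the 29 genes with all 7 values 25 had their highest value at 18.5 h, where 25.9% of the 4807 genes with all values had theirs, and 11 had their lowest at 20.5 h, against 22.6%. From 15.5 h to 18.5 h 27 of 32 genes went up, by a median of 0.47, against 49.8% of all genes and a median of 0.00. From 18.5 h to 20.5 h 30 of 31 genes went down, by a median of -0.43, against 54.9% of all genes and a median of -0.06. The exception was PUP3. With 1 array per time point these counts have no test. Those of genes highest at 18.5 h and of genes lower at 20.5 h were chosen after the values were seen. The step between the late arrays is about as large as the SD between spots for a single gene.

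**Figure D1:**
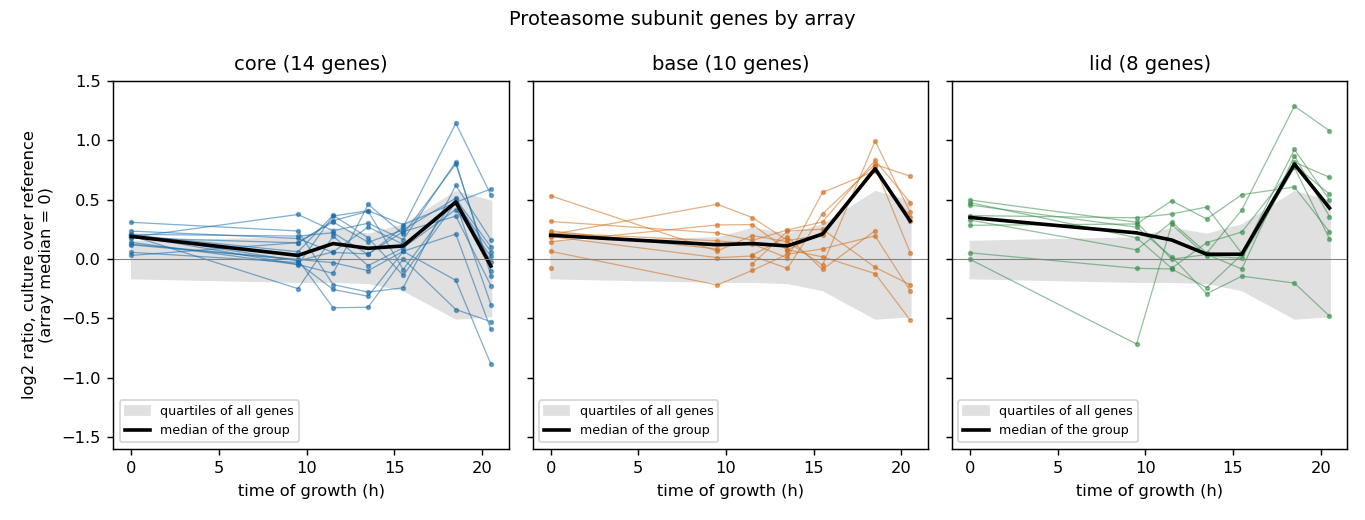
Log2 ratio of culture over reference (array median at 0) against hours of growth, for the core, base and lid genes in a panel each; thin lines are genes, the black line is the median of the group, and the grey band spans the quartiles of all genes. The group medians peak at 18.5 h, with 0.48 for the core, 0.76 for the base and 0.80 for the lid.

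The size of the departures was modest. On the 5 arrays up to 15.5 h 0 of the genes measured, 30 to 32 per array, lay at least 1.5-fold above the array median. The shares of all genes that did were 0.275%, 2.84%, 5.14%, 5.29% and 10.8%, in order of time. At 18.5 h 17 of 32 did, against 24.6% of all genes, and 0 lay that far below, against 21.9%. At 20.5 h 4 of 31 were at least 1.5-fold higher and 2 at least 1.5-fold lower, against 21.3% and 20.9% of all genes. PUP2 and RPN8 were at least 2-fold higher at 18.5 h, where 11.6% of all genes were, and RPN8 at 20.5 h, where 10.8% were. The spread among the proteasome genes was also narrow. Their SD on the last 3 arrays was 0.20, 0.41 and 0.45, against 0.52, 0.92 and 0.94 over all genes.

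The 0 h array bears on how the late values are read. It carried the same label in both channels, and yet 30 of 32 proteasome genes lay above its median, against 51.5% of all genes, with a lowest value of -0.08 and a highest of 0.53. Relative to the 0 h array the median of the 32 genes was 0.34 at 18.5 h and that of the 31 genes measured at 20.5 h was -0.14. On that baseline 8 genes were at least 1.5-fold higher at 18.5 h and 1 was that much lower, against 29.0% and 24.4% of all genes. At 20.5 h 1 gene was, against 26.0%, and 6 were at least 1.5-fold lower, against 23.2%. The count of genes highest at 18.5 h stayed at 25. Subtracting the 0 h array takes the same value from all arrays of a gene, so this count could not change. The part of this offset in the values of later arrays was not tested.

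At 18.5 h the core genes had a lower median than the base or the lid. The median step from 15.5 h to 18.5 h was 0.33 in the core, 0.37 in the base and 0.77 in the lid. The medians of the core on the late arrays were 0.48 and -0.06, with 12 and 6 of 14 genes above the array median. Of all genes 52.5% and 50.2% were. The 18 genes of the regulatory particle stood at a median of 0.78 at 18.5 h, and the 17 measured at 20.5 h stood at 0.36. The gap between the median of the regulatory particle and that of the core was 0.30 at 18.5 h and 0.42 at 20.5 h, after 0.04, 0.14, 0.00, -0.02 and 0.03 on the arrays from 0 h to 15.5 h. With the 0 h array subtracted, core and regulatory particle had medians of 0.29 and 0.46 at 18.5 h. At 20.5 h these were -0.25 and 0.07. The gap is a description of these arrays, and no test of it was made.

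The alpha ring forms the gate of the core. The medians of its 7 genes on the last 3 arrays were 0.21, 0.51 and -0.10. PUP2 (YGR253C), which encodes the alpha5 subunit, stood at 0.21, 0.19, 0.22, 0.04, 0.27, 1.14 and 0.54 from 0 h to 20.5 h. It had the highest value of the core at 18.5 h, and both late values exceeded the earlier 5. SCL1 (YGL011C), for alpha1, stood at 0.18, 0.38, 0.24, 0.30, 0.16, 0.82 and -0.14, so that its 18.5 h value was the highest of the 7 and its 20.5 h value the lowest. The change of -0.96 between the late arrays was the largest of all members. PRE5, for alpha6, went from 0.80 to -0.10 and PRE10, for alpha7, from 0.47 to -0.38 over the same step.

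Other alpha genes moved less. PRE9 (YGR135W), for alpha3, the one core subunit that yeast can live without, stood at 0.14, -0.05, 0.36, 0.41, 0.29, 0.48 and 0.06. PRE6, for alpha4, went from 0.51 to -0.02 between the late arrays. PRE8 (YML092C), for alpha2, ran against the rest, at 0.12, -0.01, -0.41, -0.41, 0.00, -0.43 and -0.53. Its 18.5 h value was the lowest of the 32 genes on that array.

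The beta ring holds the active sites, in the subunits of PRE3, PUP1 and PRE2. PRE3 encodes beta1, with caspase-like activity, PUP1 encodes beta2, with trypsin-like activity, and PRE2 encodes beta5, with chymotrypsin-like activity. At 20.5 h these had the 3 lowest values of the 7 beta genes. PRE2 (YPR103W) stood at 0.06, -0.03, -0.26, -0.31, 0.06, -0.18 and -0.89 from 0 h to 20.5 h. The last value was the lowest of any proteasome gene on any array. PRE3 (YJL001W) stood at 0.12, 0.00, -0.03, -0.10, 0.06, 0.21 and -0.59, and PUP1 (YOR157C) at 0.24, 0.17, 0.06, 0.04, 0.23, 0.36 and -0.22. In each of these genes the 20.5 h value lay below the other 6.

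The 4 beta genes without an active site, PUP3, PRE1, PRE7 and PRE4, ranged from 0.42 to 0.62 at 18.5 h and from 0.02 to 0.59 at 20.5 h, and so did not overlap with the catalytic ones on either late array. The catalytic genes ranged from -0.18 to 0.36 at 18.5 h and from -0.89 to -0.22 at 20.5 h. The nearest values of the groups, 0.36 and 0.42 at 18.5 h, lay closer than the SD between spots of 0.454. So did those at 20.5 h, -0.22 and 0.02, for an SD of 0.365. On the 0 h array the groups overlapped, from 0.06 to 0.24 for the catalytic genes and from 0.03 to 0.31 for the others. At 15.5 h the order was the reverse, with medians of 0.06 for the catalytic genes and -0.11 for the others. How often other genes split in this way was not counted. This split was looked at after the values were seen, and it has no test. PUP3 (YER094C), for beta3, stood at 0.20, 0.06, 0.37, 0.18, -0.14, 0.48 and 0.59, the highest core value at 20.5 h. PRE4 (YFR050C), for beta7, stood at 0.31, 0.24, -0.22, -0.28, -0.24, 0.62 and 0.16, and had the lowest core value at 15.5 h.

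**Figure D2:**
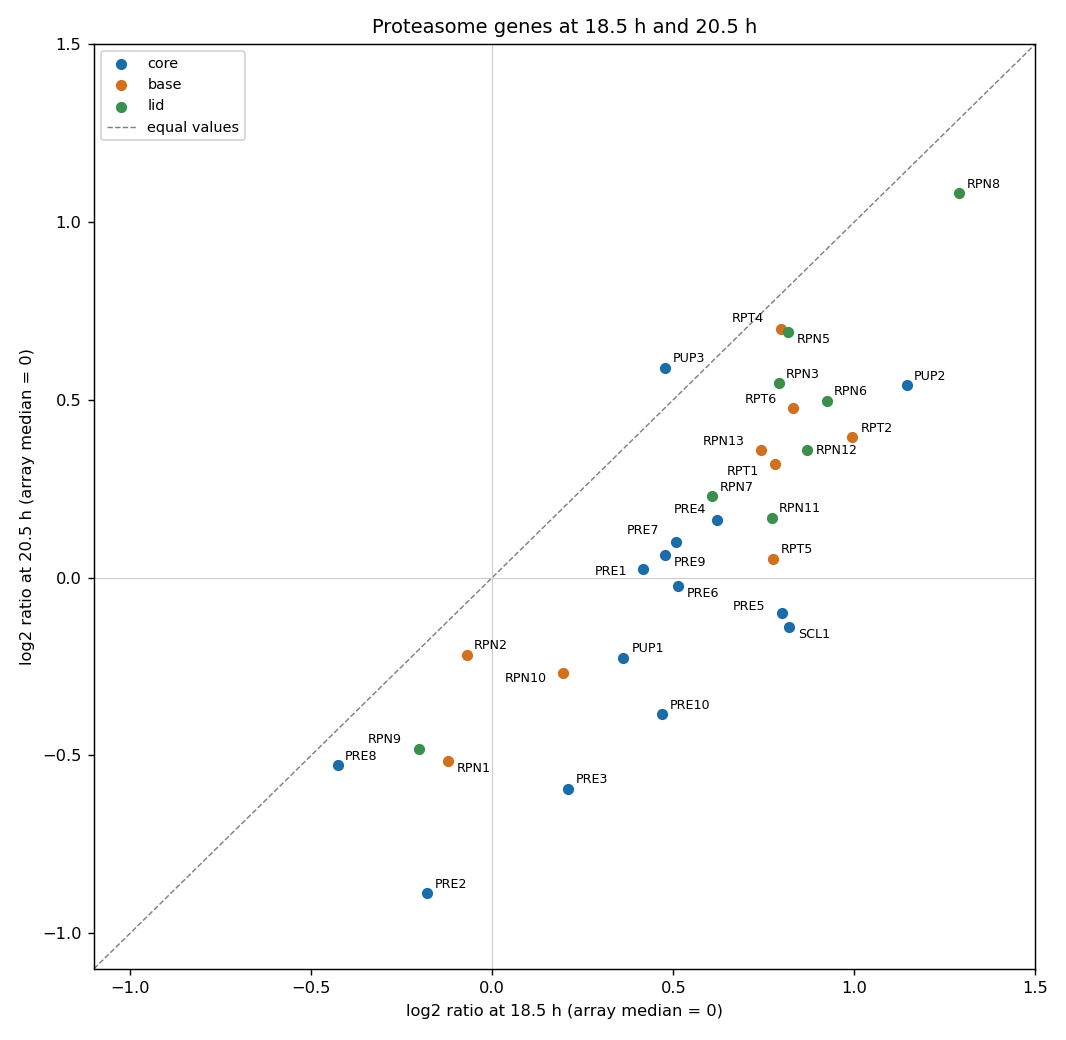
Log2 ratio of each proteasome gene at 20.5 h against that at 18.5 h (array medians at 0), coloured by core, base and lid, with the dashed line of equal values. Of 31 genes 30 lie below the line, and PUP3 lies above it.

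In the base, the ATPase genes went up together at 18.5 h and the other genes were split. The 6 ATPases, RPT1 to RPT6, form the ring that unfolds substrates. From 15.5 to 18.5 h the median of their genes went from 0.21 to 0.79, and all 6 went up, by 0.33 to 1.05. The 5 measured at 20.5 h had a median of 0.39 and ranged from 0.05 to 0.70. RPT2 (YDL007W), whose protein helps to open the gate of the core, stood at 0.53, 0.07, 0.20, 0.14, -0.05, 0.99 and 0.39. It had the largest step of all members from 15.5 h to 18.5 h, at 1.05, but its 0 h value was also the highest of all members. RPT3 (YDR394W) was blank at 9.5 h and 20.5 h, and stood at -0.08, 0.03, 0.19, -0.09 and 0.24 on the other arrays.

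The 4 other base genes had late medians of 0.06 and -0.24. RPN1 (YHR027C), for the scaffold where ubiquitin shuttle proteins dock, was blank at 11.5 h and stood at 0.24, 0.08, 0.08, 0.02, -0.12 and -0.52 on the rest. RPN2 (YIL075C), for the other large scaffold, was blank at 9.5 h and stood at 0.19, -0.04, 0.24, 0.25, -0.07 and -0.22. Both scaffold genes thus had their lowest value at 20.5 h, as did RPT5 among the ATPase genes. Among the genes of the ubiquitin receptors, RPN10 (YHR200W) had values of 0.08, 0.20 and -0.27 on the last 3 arrays. RPN13 (YLR421C) had 0.56, 0.74 and 0.36, with the highest base value at 15.5 h.

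The lid genes had late medians of 0.80 and 0.43, after 0.04 on the 15.5 h array. These were above those of the core and the base, but so was the 0 h median, at 0.35. With the 0 h array subtracted the lid stood at 0.41 at 18.5 h, below the base at 0.49, and at 0.12 at 20.5 h, above the base at -0.09. RPN8 (YOR261C), for the partner of the lid's deubiquitinase, stood at 0.33, 0.08, 0.31, 0.05, 0.41, 1.29 and 1.08. Both late values were the highest of all members on their arrays. RPN6 (YDL097C), for a subunit that braces lid and core, stood at 0.05, -0.08, -0.08, -0.24, 0.04, 0.92 and 0.50, so that its late values lay apart from the other 5. RPN11 (YFR004W), for the deubiquitinase itself, stood at 0.00, -0.72, 0.29, 0.03, 0.00, 0.77 and 0.17. Its 9.5 h value was the lowest of all members on that array. It was the one proteasome value at least 1.5-fold below the array median there, against 5.58% of all genes.

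The remaining lid genes encode structural subunits. RPN3, RPN5, RPN7 and RPN12 lay between 0.61 and 0.87 at 18.5 h and between 0.23 and 0.69 at 20.5 h. RPN7 (YPR108W) had little step between 15.5 h and 18.5 h, from 0.54 to 0.61, and RPN12 (YFR052W) a large one, from -0.08 to 0.87. RPN9 (YDR427W) was the exception in the lid, at 0.46, 0.27, 0.02, -0.29, -0.14, -0.20 and -0.48. It stood below the array median on the 4 arrays from 13.5 h on.

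The comparison that the design allows to be tested is the trend of each gene with glucose used. A line was fitted with limma to the 7 values of each of 4807 genes, against the share of glucose consumed. The fitted change is the log2 difference from 19 to 0 g/L, and genes pass where the p adjusted over all genes (Benjamini-Hochberg) is under 0.05. Of 29 proteasome genes 3 rose, where 19.5% of all genes rose, and 0 fell, where 19.0% fell. At an unadjusted p under 0.05 the counts were 4 and 1. The median fitted change was 0.21 for the proteasome genes and 0.02 for all genes. The p-values measure the scatter of 7 samples about a line, not the spread between cultures, and the arrays of a time course need not be independent. The trend does not describe a value that is high at 18.5 h and lower at 20.5 h.

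The genes that rose were RPN8, RPN6 and RPT4, of which RPN8 and RPN6 belong to the lid and RPT4 to the base. RPN8 rose by 0.97 ± 0.23 (SE, 7 arrays; limma adjusted p = 0.00806), or 1.97-fold. RPN6 rose by 0.76 ± 0.24 (limma adjusted p = 0.0273). RPT4 (YOR259C), an ATPase gene with values of 0.19, 0.01, 0.02, -0.08, 0.38, 0.80 and 0.70, rose by 0.72 ± 0.20 (limma adjusted p = 0.0165). These calls depended on the 18.5 h array. Without it RPN8 was fitted at 0.79 (adjusted p = 0.055), RPT4 at 0.64 (0.0722) and RPN6 at 0.49 (0.165). RPN6 also missed the threshold with the 9.5 or the 20.5 h array left out, though its change was then 0.80 (adjusted p = 0.0565) and 0.85 (adjusted p = 0.0517). With hours or log2 OD in place of glucose none of these genes passed, at changes of 0.64 to 0.91 and adjusted p of 0.182 to 0.287 for hours.

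RPN8 and RPT4 lie close to each other in the genome, with the single gene GCD1 between them in the RefSeq annotation, and their probe IDs are consecutive. PRE4 and RPN12 form another such pair, around RET2. The probe ID of SCL1 lies 2 from that of RPN12 and 3 from that of PRE4. With each array centred within runs of 40 probe IDs, RPN8 was at 0.81 (limma adjusted p = 0.0181) and RPT4 at 0.55 (limma adjusted p = 0.04). Both still passed. Such centring cannot remove an effect shared by only a few consecutive probe IDs, so it does not settle whether these neighbours share one.

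In the core 0 of 14 genes rose and 0 fell (limma), and 1 had an unadjusted p under 0.05. That gene was PUP2, fitted at 0.65 ± 0.24 (limma adjusted p = 0.0524), which passed when the 15.5 h array was left out (0.69, adjusted p = 0.0332) and when that of 20.5 h was (0.83, adjusted p = 0.049), and was at 0.32 (adjusted p = 0.304) without that of 18.5 h. The median fitted change of the core was 0.06, with PRE2 lowest at -0.40 ± 0.26. The 7 tested base genes had a median of 0.37, from 0.05 ± 0.21 for RPN10 to that of RPT4. The 8 lid genes had a median of 0.39, and RPN9 was lowest of all members at -0.58 ± 0.22 (limma adjusted p = 0.0621). Without the 18.5 h array the base median was 0.00, and without the 20.5 h array the core median was 0.30. In all, 9 of 14 core genes, 7 of 7 base genes and 7 of 8 lid genes had a fitted change above 0, against 51.3% of all genes. RPT3, RPN1 and RPN2 were left out of this fit for their blanks. In a fit of genes with at least 5 values they were at 0.18, -0.48 and -0.25, and with them the base median was 0.20, with 8 of 10 genes above 0.

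**Figure D3:**
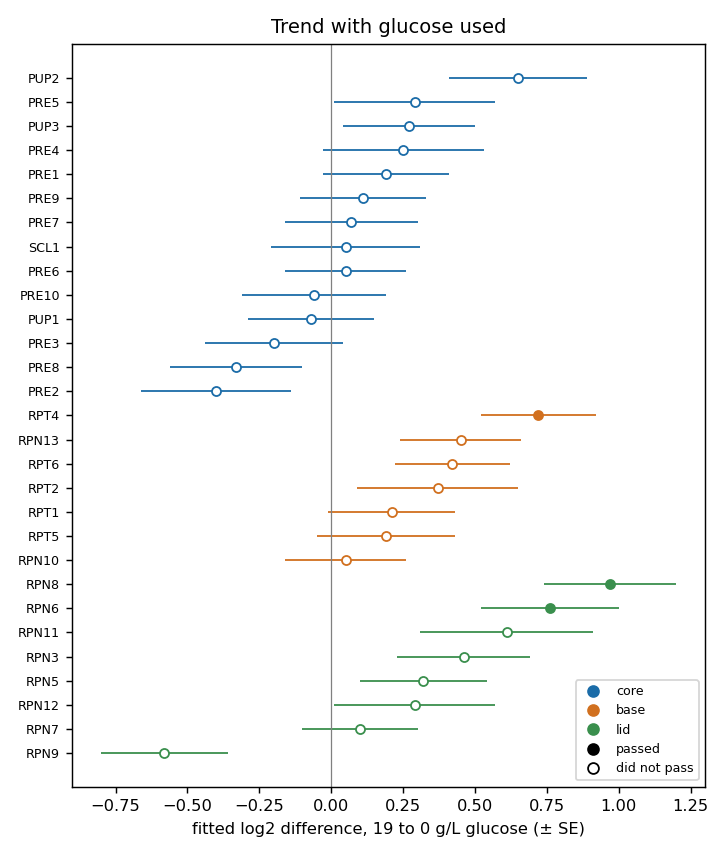
Fitted log2 difference between 19 and 0 g/L glucose for the 29 tested proteasome genes, with bars of 1 SE, coloured by core, base and lid; filled points passed the test. RPN8, RPN6 and RPT4 passed, and the core genes spread around 0.

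Among the regulators and bound proteins of the proteasome, RPN4 (YDL020C), the gene of the activator, rose by 1.54 ± 0.34 (limma adjusted p = 0.00568). The call was lost with hours in place of glucose (1.34, adjusted p = 0.202) and with log2 OD (1.35, adjusted p = 0.113). It stood at -0.03, -0.67, -0.55, -0.30, -0.42, 1.13 and 1.25, below the array median up to 15.5 h and more than 2-fold above it on both late arrays. The subunit genes, by contrast, had medians of 0.61 and 0.10 on those arrays. SPG5 (YMR191W), for a proteasome regulator of stationary phase, rose by 1.98 ± 0.27, with values of 0.08, 0.21, 0.51, 0.77, 0.83, 1.95 and 2.57 in order of time. FUB1 also passed, at 0.77 ± 0.28 (limma adjusted p = 0.0499), but its call was lost when any of the 0, 9.5, 13.5, 15.5 and 18.5 h arrays was left out, with 0.43 (adjusted p = 0.296) for the last. Of 8 genes tested in this list 4 rose, where 19.5% of all genes rose, and 1 fell, where 19.0% fell, with a median of 0.29. Over all the lists given here, 28 genes outside the 32 passed, of which 20 did not pass with hours in place of glucose, RPN14, UBC8, PRB1 and CCT7 among them, and 12 did not with log2 OD. All 28 kept the sign of their change on both scales. CIC1, for a core-binding protein that also acts in ribosome assembly, fell by 1.47 ± 0.25. BLM10, for an activator that caps the core in place of the regulatory particle, went from -0.88 to 0.16 between the late arrays. Its fitted change of -0.39 ± 0.28 missed the threshold, and passed with the 20.5 h array left out (-0.82, adjusted p = 0.0354). UBP6, for the deubiquitinase bound to the base, had a blank, and its late values were 0.57 and 0.31.

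The 9 genes of the assembly chaperones, a list that RPN14 shares with the one above, had late medians of 0.08 and -0.42. Of these 2 rose and 1 fell, near the 19.5% and 19.0% of all genes, with a median fitted change of -0.04. RPN14 (YGL004C), a chaperone of the base, rose by 1.21 ± 0.26 (limma adjusted p = 0.00457), with -0.42 on the 0 h array and late values of 1.19 and 0.47. HSM3, for another base chaperone, rose by 0.78 ± 0.23 (limma adjusted p = 0.0229), and was lost when the 0, 9.5, 18.5 or 20.5 h array was left out (adjusted p up to 0.0941). IRC25, for a chaperone of the alpha ring, fell by 0.82 ± 0.23, a call lost with either late array left out (adjusted p of 0.0785 and 0.092). UMP1, for the chaperone that the new core digests first, had -0.12, 0.08 and -0.78 on the last 3 arrays, with a fitted change of -0.04 ± 0.28. PBA1, for an alpha ring chaperone, was second lowest at -0.56 ± 0.21 (limma adjusted p = 0.0526), and passed without the 11.5 h or the 15.5 h array (adjusted p of 0.0471 and 0.0427).

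**Figure D4:**
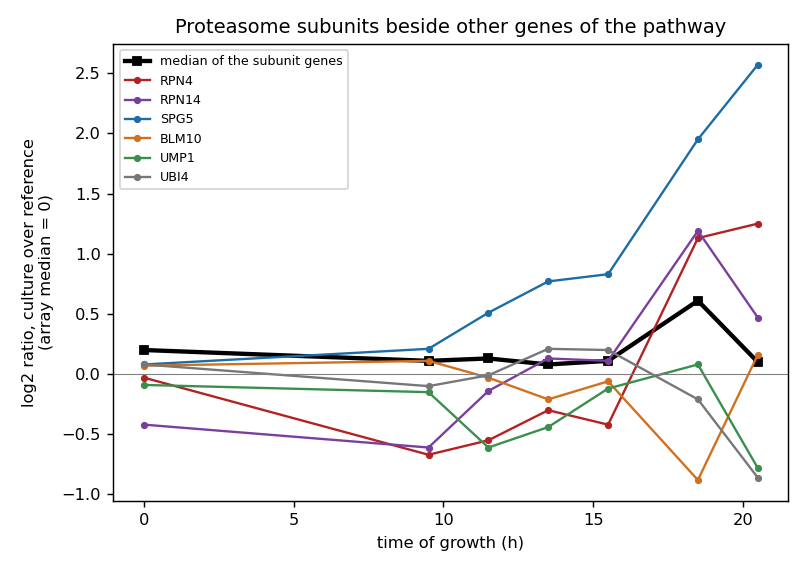
Log2 ratio of culture over reference (array median at 0) against hours of growth, for the median of the proteasome subunit genes and for RPN4, RPN14, SPG5, BLM10, UMP1 and UBI4. RPN4 and SPG5 are at their highest at 20.5 h (1.25 and 2.57), while the subunit median goes from 0.61 to 0.10 between the late arrays.

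Genes for ubiquitin fell for the most part. RPL40A, RPL40B and RPS31, which encode ubiquitin fused to a ribosomal protein, fell by 1.26 ± 0.31, 1.46 ± 0.31 and 1.25 ± 0.33, so that 3 of 4 genes fell and 0 rose, against 19.0% and 19.5% of all genes. RPL40A and RPL40B are near-identical copies, whose signals these arrays may not separate. The call of RPS31 was lost without the 18.5 h array (-1.32, adjusted p = 0.0517) and without that of 20.5 h (-0.75, adjusted p = 0.0985), and that of RPL40A without that of 20.5 h (-0.90, adjusted p = 0.0678). UBI4, the polyubiquitin gene, did not pass at -0.51 ± 0.27, and had 0.20, -0.21 and -0.86 on the last 3 arrays. All 4 genes encode ubiquitin, so the arrays may not fully separate UBI4 from the other 3 either, which was not tested.

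Among the enzymes that attach ubiquitin, 11 genes for activating and conjugating enzymes were tested, of which 3 rose and 1 fell, with a median of 0.35. Over all genes 19.5% rose and 19.0% fell. UBC8, for the conjugating enzyme that marks a gluconeogenic enzyme for degradation when glucose returns, rose by 2.05 ± 0.44, with -0.06, 1.47 and 2.66 on the last 3 arrays. It passed with any 1 array left out, at 1.3 to 2.29, the lowest without that of 20.5 h. UBC5 rose by 1.28 ± 0.21, while UBC4, its close copy, was at -0.52 ± 0.25 and did not pass (limma adjusted p = 0.127). UBC12, which conjugates the ubiquitin-like protein Rub1, rose by 0.63 ± 0.19, a call lost when the 0, 9.5 or 18.5 h array was left out (adjusted p up to 0.0929). RAD6 fell by 0.71 ± 0.19, a call kept when the 11.5, 13.5 or 15.5 h array was left out and lost for each of the other 4 (adjusted p up to 0.0693). Of 6 tested ligase genes 0 rose and 1 fell, SSM4, which encodes a ligase of the endoplasmic reticulum, by 0.97 ± 0.27, and without the 18.5 h array it was at -0.57 (adjusted p = 0.099). A count of 1 in 6 is near the 19.0% of all genes.

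Among the shuttles and the segregase Cdc48 with its cofactors, 1 of 6 tested genes rose and 0 fell, against 19.5% and 19.0% of all genes. It was SHP1, for a Cdc48 cofactor, at 1.03 ± 0.23. The shuttle gene RAD23 stood at -0.89 on the 0 h array and at -0.80, 0.88 and 0.51 on the last 3. Its fitted change was 0.92 ± 0.41 (limma adjusted p = 0.0963), and it passed with the 11.5 or the 15.5 h array left out (adjusted p of 0.0365 and 0.0165). CDC48 was lowest of the list at -0.05 ± 0.20. Of 6 deubiquitinase genes 0 rose and 1 fell, near the 19.0% of all genes. It was UBP1, which fell by 1.18 ± 0.22.

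Of the textbook regulators of RPN4, PDR3 fell by 1.10 ± 0.27 (limma adjusted p = 0.0105), a call lost with either late array left out (adjusted p of 0.0608 and 0.0666). PDR1 (-0.52 ± 0.27), YAP1 (0.11 ± 0.21) and HSF1 (0.23 ± 0.19) did not pass.

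Values for vacuolar proteolysis and for a folding machine are given beside those of the proteasome. Of 5 tested vacuolar protease genes 4 rose and 0 fell, against 19.5% and 19.0% of all genes, with a median fitted change of 1.29, and the medians of its measured genes on the last 3 arrays were 0.79, 1.60 and 1.60. APE1, for an aminopeptidase, rose by 2.17 ± 0.30 and PRB1, for a vacuolar protease, by 1.62 ± 0.33. Of 8 genes of the cytosolic chaperonin, like the proteasome a complex of stacked rings, 6 fell and 0 rose, against 19.0% and 19.5% of all genes. Its medians on those arrays were -0.11, -0.55 and -0.90, and the fitted change had a median of -1.05. CCT7 fell by 1.63 ± 0.27. In 7 fits with 1 array left out, the chaperonin gene CCT2 passed in 2 and the vacuolar gene DAP2 in 4. The other called genes of these lists passed in all 7. The proteasome genes, at 0.11, 0.61 and 0.10, lay between these lists. No test of the difference between the lists was made.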

How the data were processed

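The files used here hold, for 6400 probes and 7 arrays with 2 channels, the authors' deposited log2 ratios. Per the labels, ScanAlyze version 2.41 was the software. No source used here describes the background correction, the dye normalization or why cells are blank. The base of the logarithm was taken from the values: 40 large values lay at the 69 places of small whole-number ratios for log2, against 19.8 interpolated from neighbouring places, 88 against 84.2 for the natural log and 675 against 667.7 for log10.

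Of the probes 5548 had 1 gene symbol, 0 several and 852 none, and all 5548 matched a RefSeq table of assembly R64 by Entrez ID. No coordinates are printed, as no source used here names the arrays' build. Each array was centred on its median, and spots of one gene were averaged. The deposited medians were -0.001, 0.027, 0.018, -0.007, -0.033, 0.216 and 0.185 from 0 h to 20.5 h.

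The trend was fitted with limma 3.58.1 in R 4.3.3 (lmFit, eBayes) to genes with a value on all 7 arrays, with 5 residual and 5.46 prior degrees of freedom. Adjusted p-values (Benjamini-Hochberg) run over 4807 genes. The median standard error of a fitted change was 0.24.

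Members and lists were chosen with earlier results of these data known. RPN10 and RPN13 were counted in the base. All 32 members could be named. Those described in full passed the test or were highest or lowest of their group in fitted change or on one of the last 3 arrays. SCL1, PRE9, PRE3, PUP1, RPN2 and RPN11 fall outside this rule and were chosen after their values were seen. Of other lists, RPN4, the genes that passed and the extremes were named. SEM1 was not matched by name, and LAP4 is another name of APE1, so those lists have 1 gene fewer. Promoter motifs were not analysed here.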

Additional observations from a re-analysis of the deposited data

How the results depend on the processing

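No paired analysis was possible because each time point is 1 array. Over 17 other fits, RPN8 passed in 14, RPT4 in 13 and RPN6 in 11. These fits are not all separate checks. The genes have 1 spot each and no blanks. Their fitted changes were therefore the same with the first spot of a gene and with genes of at least 5 values. Subtracting the 0 h array gave the same changes as leaving it out, at 1.09 for RPN8, 0.82 for RPT4 and 0.87 for RPN6. The counts of passes therefore overstate how many separate checks were made. The count of proteasome genes that rose was 6 as deposited, 5 with arrays centred within runs of 40 probe IDs, 1 without both the 0 h and 9.5 h arrays, 0 against hours and 0 against log2 OD, where 1 fell. Leaving out 1 array gave 0 to 4 risen and 0 fallen. Over all genes, 936 rose and 913 fell, against 266 and 233 with hours, 597 and 512 with log2 OD and 392 and 444 without the 0 h and 9.5 h arrays, and leaving out 1 array gave 593 to 1158 risen and 638 to 1093 fallen. As deposited more genes passed upward, 1223 of 4807, and 708 fell, since the late medians lie above 0. With centring within runs 962 of all genes rose and 929 fell. Group medians of the fitted change ran from -0.16 to 0.30 in the core, 0.00 to 0.50 in the base and 0.22 to 0.55 in the lid when 1 array was left out, and the base was at 0.12 with centring within runs.

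As deposited, 11 genes were at least 2-fold higher at 18.5 h, and at 20.5 h 8 were at least 1.5-fold higher and 1 lower. The deposited array medians at these times were 0.216 and 0.185, so more of all genes also lie above a fold threshold. Shares of all genes at these folds were not counted as deposited or with centring within runs. With the 0 h array subtracted, 8 were 1.5-fold higher, 1 lower and 0 were 2-fold higher at 18.5 h. At 20.5 h the counts were 1, 6 and 0, and the base median was -0.09. With centring within runs 0 were 2-fold higher at 20.5 h. The cause was not tested. The counts of genes highest at 18.5 h and of genes lower at 20.5 h than at 18.5 h were added after seeing the data. Over these settings 21 to 25 genes were highest at 18.5 h, where 24.4% to 33.2% of all genes were. The 21 was with centring within runs, and the other settings gave 25. Subtracting the 0 h array takes the same value from all arrays of a gene, so it cannot change this count. In the same settings 28 to 30 were lower at 20.5 h. The 28 was with centring within runs, and subtracting the 0 h array cannot change this count either. The share of all genes was counted only with each array centred on its median, at 54.9%. In none of these settings did a called proteasome gene change sign. Each value rests on 1 spot, and no signal over background was used here.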
